A study of Mus musculus with 23 samples.

Results

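The GADD45 genes encode 3 small, closely related proteins that cells make in response to stress and to strong stimulation. They were followed here in ribosome-bound mRNA from neurons of the direct and indirect pathways of the mouse striatum. The members, GADD45A, GADD45B and GADD45G, were taken by their symbol on the array, which gave 6 probes, 2 for each gene, of 45281 probes and 3 of 30854 genes. All 6 passed the filter on dim probes that 32255 probes passed.

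The 4 groups compared were DRD1A mice after chronic LDOPA (8 arrays), DRD1A mice after acute LDOPA (7), DRD2 mice after chronic LDOPA (4) and DRD2 mice after acute LDOPA (4). All were BacTRAP mice of 71 days on a C57BL/6J/Swiss-Webster background. They carried an EGFP-tagged ribosomal protein, EGFP-L10a, driven by the Drd1a promoter (line CP73) or by the Drd2 promoter (line CP101), each a single transgenic line given as transheterozygous. The tag lets ribosomes of the cells that use the promoter be pulled down with their mRNA (translating ribosome affinity purification, TRAP). Every mouse, in all 4 groups, had a unilateral 6-OHDA lesion of the dopamine fibres made at 35 days of age, and the lesioned striatum was used. Chronic LDOPA means 21 days of injections, 2 each day, of 6 mg/kg LDOPA together with 15 mg/kg of the peripheral decarboxylase inhibitor benserazide, while the acute groups had saline over that time. All mice were then given LDOPA on day 22, 40 min before dissection, so there was no group without LDOPA and no group without a lesion. The study's methods state that each mouse was processed alone, while the labels name an array and no mouse. Its text also gives other sizes for some groups than the labels do. The labels were followed here, and which of them holds could not be settled, so that membership of the groups is less certain than the labels alone would make it.

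GADD45 proteins have no catalytic activity of their own and act by binding others. They bind the kinase MAP3K4 and through it switch on the p38 and JNK arms of the MAPK cascade, they bind the cyclin-dependent kinase CDK1 and the replication clamp PCNA, and they take part in active DNA demethylation. GADD45A is the classical target of p53 after DNA damage, GADD45B responds to NF-kB, TGF-beta and, in neurons, to electrical activity, and GADD45G was first found as a gene induced by cytokines. In neurons the family belongs to the genes whose mRNA appears soon after a stimulus.

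Levels are given as the log2 of the mean bead signal after quantile normalization, which gives every array the same distribution of signals. No background was subtracted, so that folds of dim probes are understated, and levels of different probes are not compared with each other because probes bind with different strength. A probe was detected on an array when its detection p, from the negative control beads, was under 0.05. Arrays are named by BeadChip (1 to 4) and position (A to F). DRD2 chronic arrays 1D and 3A were nearly identical (Pearson r = 0.990 over the probes kept, where the next of the 253 pairs had 0.928) and were averaged and counted as 1 sample, which left 22 samples (n = 8, 7, 3 and 4). Between 13114 and 17443 probes were detected per array.

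The labelled lines were checked on the marker genes. Of 8 markers of direct pathway medium spiny neurons (MSNs), 4 were higher in DRD1A samples averaged over both treatments, and of 5 markers of indirect pathway MSNs 3 were lower. DRD1A itself did not pass the threshold (1.31, adjusted p = 0.0963). Among those that did were PDYN (log2 difference 2.27, adjusted p = 9.54e-06), the precursor of dynorphin, and the DRD2 gene (-3.59, adjusted p = 1.25e-12, limma). One DRD2 chronic array stood apart, since array 1A had a DRD1A level of 9.28, against 7.04 to 8.50 on the other 7 DRD2 arrays, and a DRD2 level of 9.95, against 11.02 to 11.46. The GADD45G line differences of probe 4070142 are given with and without it. Leaving it out changed the direction or call of none of the chronic and averaged line differences of the 6 GADD45 probes. In a pull-down from whole striatum, a smaller share of a cell type and less mRNA per cell cannot be told apart.

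The 3 genes lie on separate chromosomes of the mouse genome (GRCm38.p6, RefSeq). Gadd45a spans chr6:67035096-67037407 on the minus strand, Gadd45b chr10:80930091-80932204 and Gadd45g chr13:51846675-51848475, both on the plus strand. All 6 probes were matched to these genes by the NCBI gene identifier that the array annotation gives. The 250 bases before each annotated start are shown to set the 3 promoters beside each other, since the genes had different patterns over the groups. They are chr13:51846425-51846674 for Gadd45g, chr10:80929841-80930090 for Gadd45b and chr6:67037408-67037657, minus strand, for Gadd45a. Capitals mark matches to TATAAA (the TATA box), CCAAT (the CCAAT box), ATTTGCAT (the octamer) and CACGTG (the E-box) on either strand.
Gadd45g: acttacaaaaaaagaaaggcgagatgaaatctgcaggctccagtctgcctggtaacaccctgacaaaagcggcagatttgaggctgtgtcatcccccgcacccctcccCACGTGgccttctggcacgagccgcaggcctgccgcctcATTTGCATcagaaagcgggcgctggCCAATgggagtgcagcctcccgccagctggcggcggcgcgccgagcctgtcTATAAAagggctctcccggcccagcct
Gadd45b: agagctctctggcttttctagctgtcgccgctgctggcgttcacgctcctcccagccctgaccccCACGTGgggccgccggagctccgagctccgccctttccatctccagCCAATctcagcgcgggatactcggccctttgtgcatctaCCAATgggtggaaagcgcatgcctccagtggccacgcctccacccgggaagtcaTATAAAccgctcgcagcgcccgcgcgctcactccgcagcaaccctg
Gadd45a: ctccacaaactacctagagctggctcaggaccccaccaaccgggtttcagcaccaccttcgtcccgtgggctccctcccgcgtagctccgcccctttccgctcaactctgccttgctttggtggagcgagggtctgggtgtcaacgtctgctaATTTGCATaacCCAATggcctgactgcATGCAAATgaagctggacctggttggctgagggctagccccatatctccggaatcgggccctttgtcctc

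All 3 promoters held CCAAT, which stood in 33.8% of the 32851 promoters of the same length. Gadd45g and Gadd45b both had TATAAA (12.4% of promoters), 27 and 46 bases before their starts, and both had CACGTG (6.02%), while Gadd45a had neither. Gadd45g shared the octamer (1.6%) with Gadd45a, which had it on both strands. Other motifs were looked for on both strands and had no match in these windows, namely TGACGTCA (the cAMP response element, 1.55%), TGANTCA (the AP-1 site, 6.75%) and GCGTGGGCG (the EGR site, 0.536%). No 2 of these motifs overlapped in the 3 windows. Such matches describe letters only.

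GADD45G was the only member with a called difference, higher in DRD1A than in DRD2 mice. Its probe 4070142 was detected on all 23 arrays. In the 8 DRD1A chronic samples the level ran from 10.88 over a median of 11.86 to 12.47, and in the 7 DRD1A acute samples from 11.02 over a median of 12.48 to 12.61. The DRD2 chronic samples read 10.27, 10.28 and 10.90 and the DRD2 acute samples 9.77, 10.24, 10.56 and 10.66. All 7 DRD1A acute samples thus lay above all 4 DRD2 acute samples, and 7 of the 8 DRD1A chronic samples lay above all 3 DRD2 chronic ones. The exception was array 3C, at 10.88 just under the averaged pair of arrays 1D and 3A at 10.90. Complete separation upwards after acute LDOPA was seen for 253 of 32255 probes (0.784%). As deposited, before normalization, the signal was 2066 to 9174 in DRD1A chronic and 1650 to 5258 in DRD1A acute mice, against 1304 to 2022 in DRD2 chronic and 757 to 1566 in DRD2 acute mice. Before normalization the lowest DRD1A acute signal thus lay below the highest DRD2 chronic one.

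**Figure D1:**
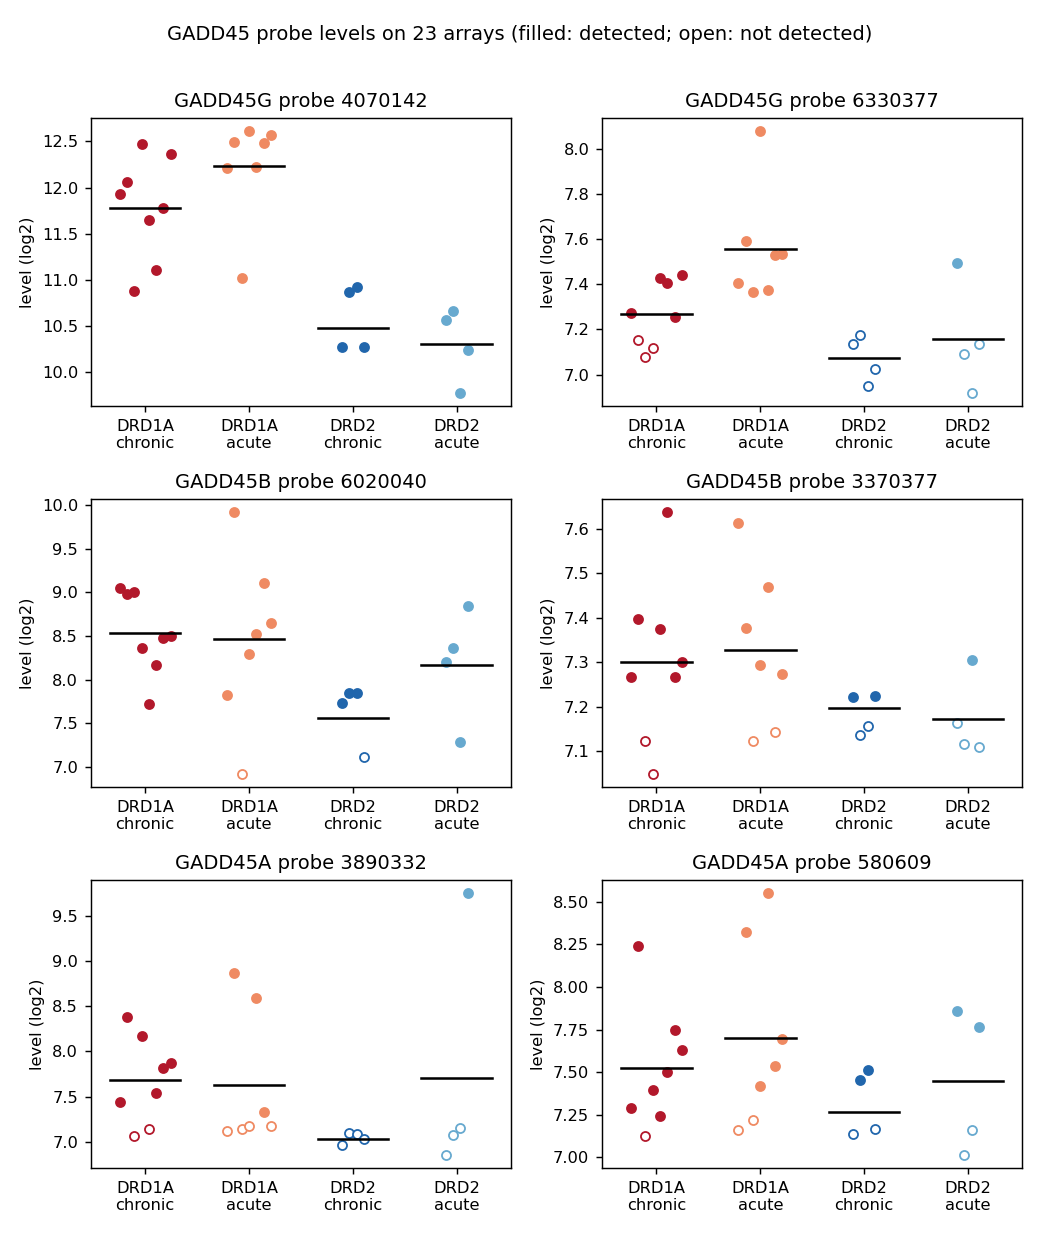
Level (log2, y axis) of the 6 GADD45 probes on each of the 23 arrays, by group (x axis); filled points were detected, open ones were not, and the black line is the mean over samples with arrays 1D and 3A averaged. The DRD1A points of GADD45G probe 4070142 reach 12.61, while no DRD2 array passes 10.93.

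After acute LDOPA, GADD45G averaged 12.23 ± 0.56 in DRD1A samples (SD, n = 7) and 10.31 ± 0.40 in DRD2 samples (n = 4). The log2 difference was 1.92 (SE 0.31, 95% confidence interval 1.27 to 2.57), 3.79-fold, with an adjusted p of 0.0159 in limma over all 32255 probes, and it ranked 12 by p. In this comparison 51 probes were called (0.158%), and 1 of the 6 GADD45 probes was among them. The call did not hold in every setting. With the BeadChip as a block the difference was 2.12 (adjusted p = 0.0577), without BeadChip 1 it was 2.11 (0.0551), after median centering in place of quantile normalization 1.85 (0.0863), and without DRD2 acute array 3F 1.74 (0.0630). The difference itself stayed between 1.74 and 2.12 in all settings run.

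After chronic LDOPA the averages were 11.78 ± 0.56 in DRD1A samples (SD, n = 8) and 10.48 ± 0.36 in DRD2 samples (n = 3). The difference of 1.30 (SE 0.34, interval 0.59 to 2.00) had an unadjusted p of 0.00105 and an adjusted p of 0.292 in limma, where 9 probes were called (0.0279%) and no GADD45 probe was. By the methods' analysis of variance on the same values, the probe varied among the 4 groups (adjusted p = 0.0316). Tukey's test after it gave a p of 0.00783 for this pair and 6.93e-05 for the acute pair. Tukey's p is adjusted over the pairs of groups but not over the probes, so it cannot be set against limma's 0.292. With array 1A left out, the chronic difference was 1.20 (adjusted p = 0.669) and the acute one 1.92 (adjusted p = 0.0200).

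Averaged over both treatments, GADD45G stood at 12.01 in DRD1A and 10.40 in DRD2 samples. The difference of 1.61 (SE 0.23, interval 1.13 to 2.09), 3.05-fold, was called with an adjusted p of 0.00304 and ranked 10 of 32255 probes, of which 118 were called (0.366%). It was called under each of the 8 alternatives that give this comparison and in each of the 23 fits without 1 array, with adjusted p-values of at most 0.0179. Without array 1A it was 1.56 (adjusted p = 0.0125). The moderated F test among the 4 groups gave an adjusted p of 0.0139 (95 probes called, 0.295%), which became 0.0617 without BeadChip 1.

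The arrays of a BeadChip are hybridized and scanned together, so the lines were also set against each other within BeadChips. After acute LDOPA, GADD45G was 1.61 higher in DRD1A on BeadChip 2 (1 array against 2), 2.71 higher on BeadChip 3 (1 against 1) and 2.33 higher on BeadChip 4 (1 against 1). After chronic LDOPA it was 0.74 higher on BeadChip 3 and 1.48 higher on BeadChip 4 (3 arrays against 1 on each). The direction was thus the same on each BeadChip that holds both lines after 1 treatment. BeadChip 1 held only DRD1A acute and DRD2 chronic arrays and gives no such value.

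**Figure D2:**
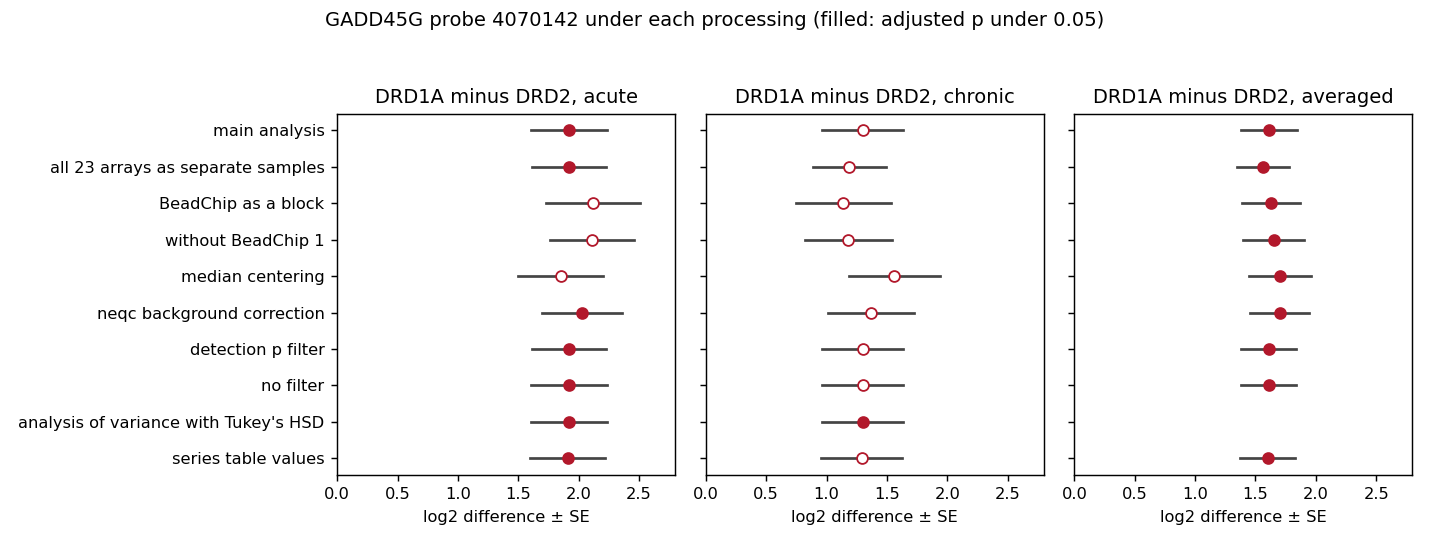
Log2 difference of GADD45G probe 4070142 between DRD1A and DRD2 samples (x axis, point ± SE from limma) under each processing (rows) for the acute, chronic and averaged comparisons; filled points had an adjusted p under 0.05, and for the analysis of variance filled means that both its adjusted p and Tukey's p were under 0.05. The averaged difference is filled in every row that gives it, the acute one is open in 3 rows.

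No treatment difference of GADD45G was called. In DRD1A mice the chronic samples were lower than the acute ones by 0.45 in the mean (log2 difference -0.45, SE 0.26, interval -0.99 to 0.09, adjusted p = 0.706), and 7 of the 8 chronic samples lay within the range of the acute ones. Within BeadChips 2, 3 and 4 the DRD1A difference was -0.23, -0.82 and -0.82, and the DRD2 difference was 1.15 on BeadChip 3 and 0.03 on BeadChip 4. After median centering the DRD1A difference was 0.04, so that its direction depended on the normalization. In DRD2 mice the chronic minus acute difference was 0.17 (SE 0.38, interval -0.62 to 0.97, adjusted p = 0.976). The change in DRD1A minus that in DRD2, the interaction, was -0.62 (interval -1.58 to 0.34, adjusted p = 0.903). No GADD45 probe was called in these 3 comparisons, in which 11 probes (0.0341%), 1 probe (0.0031%) and 0 probes (0%) were called by limma. At an unadjusted p under 0.05 the interaction counted 1796 probes, none of them a GADD45 probe. In order of the mean, DRD1A acute stood above DRD1A chronic, DRD2 chronic and DRD2 acute, and no neighbours in that order differed at the adjusted threshold in limma.

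Each GADD45G signal is the mean of 27 to 58 beads, with a standard error of 2.34% to 8.87% of the signal. Between samples of 1 group the SD was 0.36 to 0.56 on the log2 scale. DRD1A acute array 1E was alone at the low end of its group at 11.02, with the next sample at 12.22. Without it the acute difference between the lines was 2.12 (adjusted p = 0.00109).

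The second GADD45G probe, 6330377, lay near background, with detection on 5 of 8 DRD1A chronic, 7 of 7 DRD1A acute, 0 of 4 DRD2 chronic and 1 of 4 DRD2 acute arrays. Its mean was 7.27 in DRD1A chronic and 7.55 in DRD1A acute samples, against 7.07 in DRD2 chronic and 7.16 in DRD2 acute samples. The acute difference between the lines was 0.40 (SE 0.12, unadjusted p = 0.00382, adjusted p = 0.263), and 4 of 7 DRD1A acute samples lay above all DRD2 acute ones. Since no DRD2 chronic array detected it, the chronic comparison gives only a bound on the ratio of the means, at least 1.04-fold. This bound leaves out the spread between samples. The measured difference was 0.19, with an interval that includes 0 (-0.08 to 0.47, adjusted p = 0.95, limma). For such a bound the group without detection is set at the lowest signal of any detected probe on each array, or at its own value where that is higher. In DRD1A mice this probe was 0.29 lower after chronic LDOPA (unadjusted p = 0.0094, adjusted p = 0.436), with 5 of 8 chronic samples below all acute ones. Over the 22 samples the 2 GADD45G probes had a Pearson r of 0.649, which is a description of samples that share their arrays and groups.

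GADD45B, which neurons make after electrical activity, had a broad spread and no called difference. Probe 6020040 was detected on 21 of 23 arrays. Its level ran from 7.72 over a median of 8.49 to 9.04 in DRD1A chronic and from 6.92 over 8.53 to 9.92 in DRD1A acute samples. The DRD2 chronic samples read 7.12, 7.73 and 7.84 and the DRD2 acute samples 7.28, 8.20, 8.36 and 8.84. After chronic LDOPA 7 of 8 DRD1A samples lay above all DRD2 samples. The exception, array 3E at 7.72, lay below the DRD2 samples at 7.73 and 7.84, so the ranges overlapped. After acute LDOPA the ranges overlapped too, with 2 of 7 DRD1A samples above all DRD2 samples and 1 below all of them. The chronic difference was 0.97 (SE 0.45, interval 0.03 to 1.91), with an unadjusted p of 0.0433 and an adjusted p of 0.792, and without array 1A it was 1.05 (adjusted p = 1). The acute difference was 0.29 (interval -0.58 to 1.16, adjusted p = 0.885) and, without DRD2 acute array 3F, -0.01. Averaged over treatments, DRD1A stood 0.63 above DRD2 (interval -0.01 to 1.27, adjusted p = 0.588).

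In the treatment comparisons GADD45B probe 6020040 differed by 0.07 in DRD1A (interval -0.64 to 0.79) and by -0.61 in DRD2 (interval -1.66 to 0.45), with adjusted p-values of 0.979 and 0.906. The DRD1A value changed sign with the BeadChip as a block (-0.06) and without BeadChip 1 (-0.23). The other probe of GADD45B, 3370377, was detected on 14 of 23 arrays, and its group means lay between 7.17 and 7.33. Its DRD1A minus DRD2 differences were 0.15 after acute and 0.10 after chronic LDOPA. The 2 GADD45B probes had a Pearson r of 0.0158 over the 22 samples. In the DRD1A acute group, where probe 6020040 had its largest SD of 0.95, array 1C was the highest at 9.92 and array 1E, which did not detect it, the lowest at 6.92.

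GADD45A, the p53 target, was close to background in most samples, high in a few, and not called in any comparison. Probe 3890332 was detected on 6 of 8 DRD1A chronic, 3 of 7 DRD1A acute, 0 of 4 DRD2 chronic and 1 of 4 DRD2 acute arrays. Probe 580609 was detected on 7 of 8, 5 of 7, 2 of 4 and 2 of 4 arrays of the same groups. The level of probe 3890332 ran from 7.07 over a median of 7.68 to 8.38 in DRD1A chronic and from 7.11 over 7.18 to 8.87 in DRD1A acute samples. In DRD2 chronic samples it was 6.96, 7.03 and 7.09, and in DRD2 acute samples 6.85, 7.08, 7.15 and 9.75. The last value, on array 4E, was the highest of this probe on all 23 arrays, with a deposited signal of 813 from 34 beads (SE 5.06% of the signal), against 113 to 140 on the other DRD2 acute arrays. On the same array the second GADD45A probe read 7.77, inside the range of its group (7.01 to 7.86).

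After chronic LDOPA, GADD45A probe 3890332 averaged 7.68 in DRD1A samples and 7.03 in DRD2 samples. As no DRD2 chronic array detected it, the ratio of these means was at least 1.39-fold by the bound described for GADD45G, which leaves out the spread between samples. The measured difference was 0.65, with an interval that includes 0 (-0.40 to 1.70, adjusted p = 0.978, limma). Of the 8 DRD1A chronic samples, 7 lay above all DRD2 chronic samples. In DRD2 mice the acute mean of 7.71 was carried by array 4E. The acute difference between the lines was -0.08 with that array and 0.60 without it, neither of them called. Probe 580609 differed between the lines by 0.25 after acute LDOPA (interval -0.29 to 0.79, adjusted p = 0.826) and by 0.26 after chronic LDOPA (interval -0.32 to 0.84, adjusted p = 1). The 2 GADD45A probes had a Pearson r of 0.675 over the 22 samples, and both were high on DRD1A arrays 1C, 2D and 2E.

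**Figure D3:**
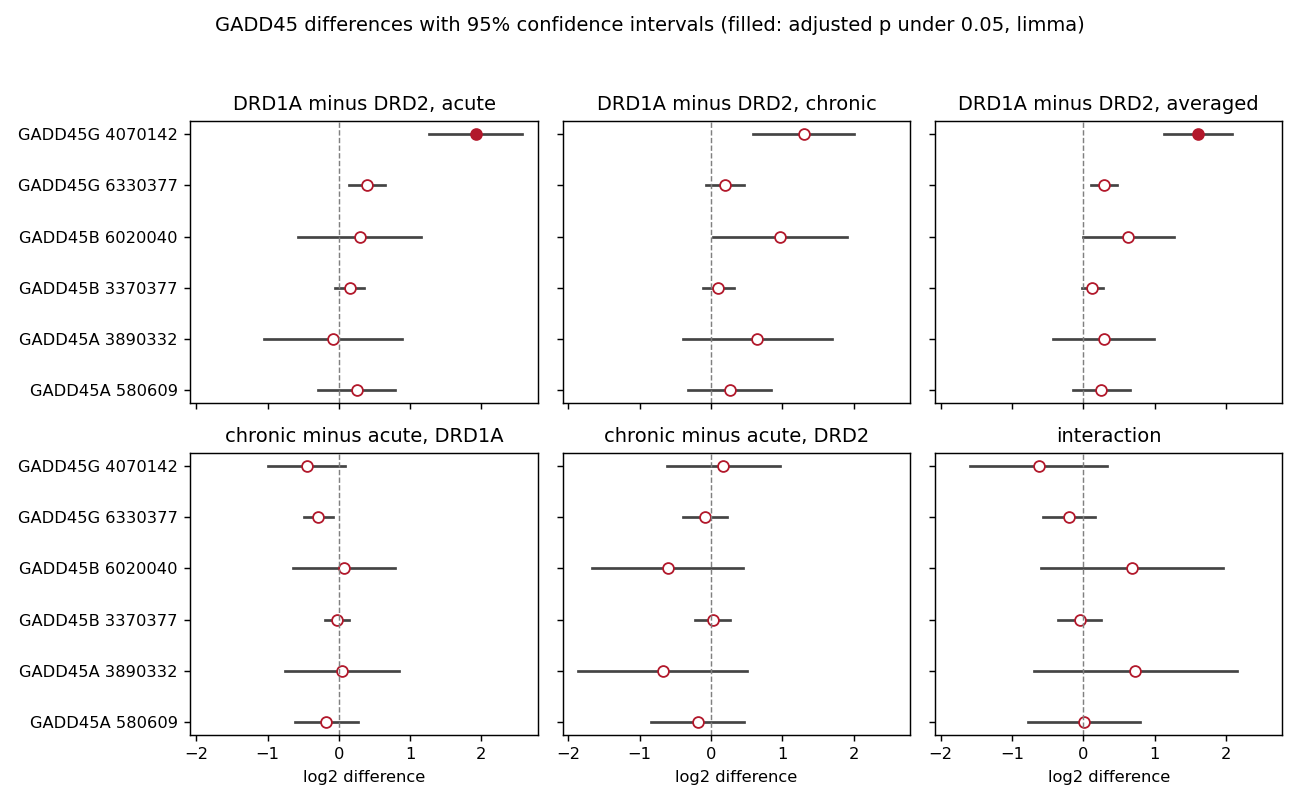
Log2 difference (x axis) with its 95% confidence interval for the 6 GADD45 probes (rows) in 6 comparisons (panels); filled points had an adjusted p under 0.05 in limma. Only GADD45G probe 4070142 is filled, at 1.92 in the acute and 1.61 in the averaged comparison of the lines.

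Over the family, all 6 probes had a positive DRD1A minus DRD2 difference averaged over both treatments, 1 of them called, with a median of 0.29 against -0.0032 over all 32255 probes. After acute LDOPA 5 of 6 and after chronic LDOPA 6 of 6 were positive, with medians of 0.27 and 0.46 against -0.0087 and 0.0077 over all probes. Both GADD45A probes, GADD45B 3370377 and GADD45G 6330377 were detected on only 10 to 16 of 23 arrays. Probes of 1 gene share their target, so the 6 probes stand for 3 genes and are not 6 independent values. By their brighter probes, GADD45A and GADD45B had a Pearson r of 0.548 over 22 samples, GADD45B and GADD45G 0.525 and GADD45A and GADD45G 0.218. With the group means taken out the values were 0.502, 0.484 and 0.225.

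The genes whose levels were most like GADD45G probe 4070142 over the 22 samples were FOS (Pearson r = 0.888), EGR1 (0.871), BTG2 (0.85), CIB2 (0.81) and GNG2 (0.805). FOS and EGR1 encode transcription factors of the immediate early response, BTG2 is a p53-inducible inhibitor of proliferation that is also induced by stimulation, CIB2 binds calcium, and GNG2 is a G protein gamma subunit. These r values contain the difference between the lines and are given as descriptions of 22 samples that share BeadChips and groups. They stayed between 0.745 and 0.857 without DRD2 acute arrays 3F and 4E, the samples farthest from the median of GADD45G. Since GADD45G differed between the lines, genes picked in this way tend to differ too, and their line differences are given only as values. Averaged over both treatments these were 1.39 for FOS, 0.74 for EGR1, 1.69 for BTG2, 0.92 for CIB2 and 0.64 for GNG2.

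With the group means taken out, BTG2 was the gene most like GADD45G (r = 0.803), followed by YEATS4 (0.798), KIF13B (0.768), ORC4L (0.759) and V1RD19 (0.754). The group means were only 7.08 to 7.20 for KIF13B and 7.06 to 7.14 for V1RD19. That is about the level that GADD45 probes had on arrays without detection. Without the samples farthest from the median, arrays 1E and 3C, the r with BTG2 was 0.625, that with ORC4L 0.478 and that with YEATS4 0.676, so that BTG2 no longer came first. On DRD1A acute array 1E, GADD45G, FOS (8.29), EGR1 (12.61), BTG2 (9.08) and DUSP1 (10.56) each had their lowest level of the 7 DRD1A acute samples. The direct pathway markers DRD1A (10.11) and PDYN (12.00) had their highest level of that group on the same array. For DRD1A the lead was small, with array 2D at 10.07, and the other direct pathway markers were not read by array. On DRD2 acute array 3F the same 5 genes had their lowest level of the 4 DRD2 acute samples, with GADD45G at 9.77 and FOS at 7.33. There the line markers did not stand high, since the DRD2 gene (11.04) and PDYN (7.77) also had their lowest level of that group. The reason for the low levels on either array was not tested.

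**Figure D4:**
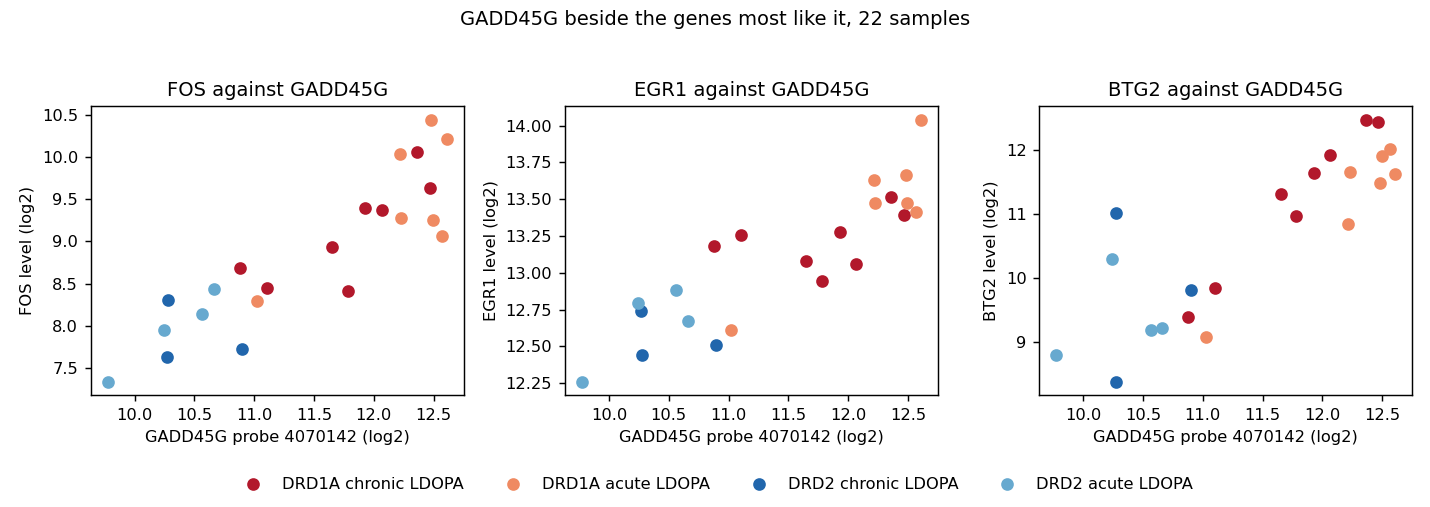
Level of FOS, EGR1 and BTG2 (y axes, log2) against GADD45G probe 4070142 (x axis, log2) in 22 samples, coloured by group. The DRD2 samples lie at the left, up to 10.90, and DRD1A arrays 3C (10.88), 1E (11.02) and 4C (11.10) lie beside them, left of the other DRD1A samples.

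GADD45B probe 6020040 and GADD45G probe 6330377 were the other probes detected on every array of a group. Most like GADD45B over all samples were TAS2R137 (r = 0.749), TBC1D9 (0.711), SOHLH1 (0.71), TIPIN (0.694) and PPAP2A (0.691), none of them called between the lines, and within groups TAS2R137 (0.773), GPR3 (0.744), CISH2 (0.716), SOHLH1 (0.702) and OBFC1 (0.696). Most like the dim GADD45G probe were NACA (0.802), PTGES3 (0.773), POLD4 (0.761), EGR1 (0.759) and GSTM6 (0.746), and within groups AATF (0.816), CACNA2D1 (0.798), GSTM6 (0.788), NUDT5 (0.786) and ZFP114 (0.781). EGR1 was thus among the 5 genes most like either GADD45G probe over all samples, where r contains the difference between the lines. With the group means taken out it was among the 5 of neither probe.

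The partners and targets of GADD45 proteins are given by list. In the averaged comparison 0.366% of all probes were called, so that no call in a short list does not set it apart from other genes. Of the 12 genes of the p38 and JNK module none was called in any of the 6 comparisons, and their median DRD1A minus DRD2 difference averaged over treatments was -0.06 against -0.0032 over all probes. MAP3K4, the kinase that GADD45 proteins bind, differed by -0.48 (SE 0.41, adjusted p = 0.818), and the p38 isoform MAPK11 by 0.52 (SE 0.32, adjusted p = 0.715) with a difference of 1.18 (adjusted p = 0.392) after acute LDOPA. MAP2K6, which activates p38, differed by -0.51 (SE 0.24, adjusted p = 0.575), and ATF2, a transcription factor that p38 and JNK phosphorylate, by -0.45 (SE 0.20, adjusted p = 0.527). Of the cell cycle and repair partners 6 of 7 were tested, all but the cyclin CCNB1, and none was called. CDKN1A, the p21 inhibitor of cyclin-dependent kinases, differed by 0.43 (adjusted p = 0.713), the GADD45 binding protein GADD45GIP1 by -0.34 (0.612), the acetyltransferase EP300 by 0.11 (0.960) and PCNA by 0.11 (0.863).

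Of the partners and targets of DNA demethylation 6 of 9 were found on the array by these symbols and tested, and none was called (0.366% of all probes). TAF12, a TFIID subunit through which GADD45A is recruited to rRNA genes, differed by 1.02 (SE 0.32, adjusted p = 0.26) averaged over treatments, the growth factor FGF1 by 0.21 (0.803), BDNF by 0.14 (0.763) and the glycosylase MBD4 by 0.11 (0.892). BDNF and FGF1 are genes whose promoters GADD45B is known to demethylate in the mouse hippocampus. BDNF was detected on 4 and MBD4 on 2 of 23 arrays, so that at this signal a difference in them could not be detected.

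Among other stress-induced genes 11 of 14 were tested and none was called (0.366% of all probes), the median difference being 0.22. BTG2 had the largest difference, 1.69 (SE 0.47, adjusted p = 0.178). DDIT4, an inhibitor of mTORC1, went the other way at -0.77 (SE 0.18, adjusted p = 0.0752), while DDIT3, the transcription factor CHOP, differed by 0.55 (0.424) and ATF4, which drives the integrated stress response, by 0.35 (0.384). TRP53, the gene of p53, did not pass the filter.

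A list of 5 MAPK genes held the 4 that the study's text names beside GADD45G, which it chose on these samples, and DUSP6. Their direction here is thus not independent evidence, and the list leaves out further MAPK genes that the study tabulates. Averaged over both treatments 4 of the 5 were higher in DRD1A samples (0.366% of all probes were called), with a median of 0.67 over the 5. The phosphatase gene DUSP1 was higher by 1.64 (SE 0.27, adjusted p = 0.00771), FOS by 1.39 (SE 0.27, 0.0284), the microtubule regulator STMN1 by 0.66 (SE 0.11, 0.00917) and the nuclear receptor NR4A1 by 0.64 (SE 0.13, 0.0288). For the phosphatase DUSP6 the difference was 0.64 (SE 0.17, adjusted p = 0.159). After acute LDOPA only DUSP1 was called (1.88, adjusted p = 0.0430), beside the 1.92 of GADD45G, and after chronic LDOPA none of the 5 was. RASGRP2, a MAPK gene outside the list chosen after its values were seen, was lower in DRD1A samples averaged over both treatments (-1.02, adjusted p = 0.00738).

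Of 10 transcription factors known to act on GADD45 genes 8 were tested. Between the lines averaged over both treatments 1 of the 8 was called, where 0.366% of all probes were. Between treatments in DRD1A mice 1 of the 8 was called, where 0.0341% of all probes were. EGR1 was higher in DRD1A samples averaged over both treatments by 0.74 (SE 0.14, adjusted p = 0.0181). CREB1, the cAMP response element binding protein, was lower after chronic than after acute LDOPA in DRD1A mice by 1.05 (log2 difference -1.05, SE 0.16, adjusted p = 0.0193), with means of 8.48 after chronic and 9.53 after acute LDOPA. In DRD2 mice the difference was -0.67 (adjusted p = 0.679). Of the 7 DRD1A acute arrays 4 lay on BeadChip 1, which held no DRD1A chronic array, and without that BeadChip no probe was called in this comparison. The others tested included RORA (-0.37 between the lines, adjusted p = 0.594), FOXO3 (-0.19, 0.919), FOXO1 (0.07, 0.785) and RELA (0.05, 0.987), while NFKB1 and MYC did not pass the filter. FOXO1 lay near background, with detection on 5 of 23 arrays.

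**Figure D5:**
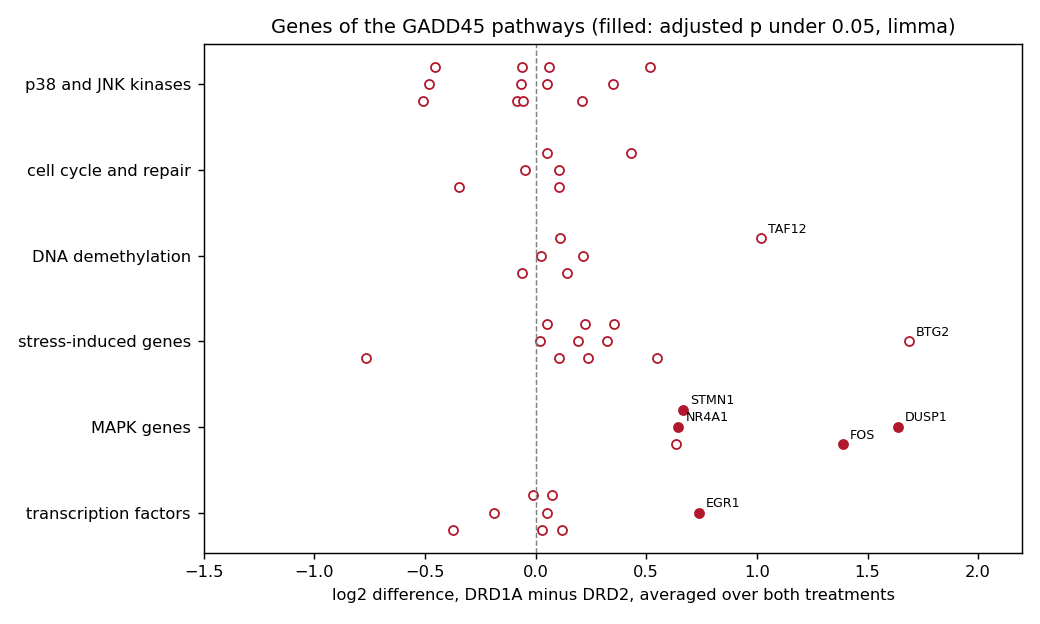
Log2 difference between DRD1A and DRD2 samples averaged over both treatments (x axis) for the tested genes of 6 lists (rows), 1 point a gene by its brightest probe; filled points had an adjusted p under 0.05 in limma. The filled genes are DUSP1 (1.64), FOS (1.39), EGR1 (0.74), STMN1 (0.66) and NR4A1 (0.64).

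Markers of other cells were set beside the line difference of GADD45G. Of 3 markers of cortical excitatory neurons, NEUROD6 was higher in DRD1A samples averaged over both treatments (1.45, adjusted p = 0.0284, limma). SLC17A7 (0.25, adjusted p = 0.42) and TBR1 (0.14, adjusted p = 0.91) were not called. The summed level of the 3 was 10.50 to 11.14 in DRD1A chronic and 10.69 to 11.34 in DRD1A acute arrays. It was 9.045 to 11.04 in DRD2 chronic and 9.12 to 10.35 in DRD2 acute arrays. Signals were added before log2 was taken, so that this sum mainly follows NEUROD6, the brightest of the 3 by its group means. The part of NEUROD6 in the GADD45G difference was not tested. None of the tested markers of cholinergic interneurons (3 of 3 tested), GABAergic interneurons (4 of 4), astrocytes (3 of 4), oligodendrocytes (4 of 4), microglia (4 of 4) or endothelial cells (1 of 4) was called between the lines averaged over both treatments. The microglial marker ITGAM and the endothelial markers TEK and FLT1 were not detected on any array.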

How the data were processed

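RNA from translating ribosome affinity purification of 23 striata was hybridized to 4 BeadChips of Illumina's Mouse WG-6 v2 design. Deposited were intensity values, each a mean over beads, that the authors exported from GenomeStudio (Gene Expression module 1.9.0) without normalization or background subtraction. The deposited detection p-values compare each signal with negative controls, and the report also holds bead numbers and bead standard errors. The deposited log2 values of the series table were quantile normalized by the authors and used only as an alternative. Another 4 columns, of 1 array that belongs to no listed sample, were not used.

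Quantile normalization was run across 23 arrays, values under 1 were raised to 1, and log2 was taken. A probe was kept if some group had it over the 20th percentile on each of its arrays (32255, 71.2%). Groups came from the labels. Nearly identical DRD2 chronic arrays 1D and 3A were averaged. One model with a mean per group was fitted over all probes (limma 3.58.1 in R 4.3.3, 18 residual degrees of freedom, two-sided, Benjamini-Hochberg), and an adjusted p under 0.05 was a call. The labels name no animal, so that p-values measure the spread between arrays, whose number limits the precision. The script was tested on simulated data.

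Named were all GADD45 probes, in each list every called gene and up to 4 others with the largest line difference, and the 5 genes most correlated with each probe detected on all arrays of a group. A gene of a list was read by its brightest probe. The members and lists were chosen with earlier results of these data known. Alternatives were the arrays as 23 samples, the BeadChip as a block, no BeadChip 1, median centering, neqc background correction, a filter on detection, no filter, the methods' analysis of variance with Tukey's test, the series table, and leaving out each array.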

Additional observations from a re-analysis of the deposited data

Results flagged for a closer look

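A sample stood far from the rest of its group in 3 of the 18 sets of 4 to 10 samples examined, by the gap to its nearest neighbour over the range of the set, and chance gives about 1 in 20 such sets. GADD45A probe 3890332 read 9.746 on DRD2 acute array 4E, with the next sample of the group at 7.154 (gap over range 0.895, critical value 0.829, n = 4). GADD45G probe 4070142 read 11.02 on DRD1A acute array 1E, with the next sample at 12.22 (0.751, critical value 0.568, n = 7). On array 1E the other GADD45G probe was also the lowest of its group, at 7.37. GADD45G probe 6330377 read 8.078 on DRD1A acute array 1F, with the next sample at 7.592 (0.685, critical value 0.568, n = 7), and probe 4070142 was the highest of its group on that array, at 12.61.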

How the results depend on the processing

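Over the 9 alternatives other than leaving out an array, 278 of 294 values for the GADD45 probes kept their direction and their side of the threshold, 12 changed sign, 3 lost the call and 1 gained it, and the causes were not tested. The line difference of GADD45G probe 4070142 after acute LDOPA lost its call with the BeadChip as a block (2.12), without BeadChip 1 (2.11) and after median centering (1.85), and ran from 1.74 to 2.12 when 1 array was left out. The F test's adjusted p was 0.0617 without BeadChip 1. The chronic difference of 1.30 gained a call by the analysis of variance with Tukey's test. That call needed both the adjusted p of the analysis of variance (0.0316) and Tukey's p, which itself is not adjusted over the probes, to be under 0.05. The chronic difference ran from 1.19 to 1.43 without 1 array, the averaged one from 1.52 to 1.71. Tukey's test gives no value for the averaged comparison or the interaction.

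None of the values that changed sign was called. With the BeadChip as a block they were, for GADD45A probe 580609, the interaction (-0.386) and the chronic minus acute difference in DRD2 (0.0629). For GADD45B they were the DRD1A difference of probes 3370377 (0.00851) and 6020040 (-0.0619) and the interaction of 3370377 (0.00337). Without BeadChip 1 they were the DRD1A differences of GADD45B 3370377 (0.00639) and 6020040 (-0.234) and of GADD45A 3890332 (-0.0195), and the interaction of GADD45A 580609 (-0.297), which was -0.045 with 23 separate arrays. The acute line difference of GADD45A 3890332 was 0.0682 after neqc, and the DRD1A difference of GADD45G 4070142 0.0447 after median centering. Leaving out 1 array changed the sign of 29 values. The ranges were, for GADD45A 3890332, -0.0493 to 0.258 (DRD1A) and -0.364 to 0.601 (acute line), for GADD45A 580609 -0.127 to 0.159 (interaction), for GADD45B 3370377 -0.074 to 0.0217 (DRD1A), for GADD45B 6020040 -0.187 to 0.314 (DRD1A) and -0.00566 to 0.549 (acute line), and for GADD45G -0.00814 to 0.288 (4070142, DRD2) and -0.167 to 0.025 (6330377, DRD2).

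Counts of called probes moved more. The acute line count of 51 became 14 with the block, 16 without BeadChip 1, 7 after median centering, 89 with the detection filter, which kept 12262 probes and 3 of the 6 GADD45 probes, and 30 by Tukey's test. The chronic count of 9 became 49 with 23 separate arrays, 31 after median centering, 27 by Tukey's test, 16 with the detection filter and 14 after neqc. The averaged count of 118 became 184 with 23 separate arrays, 28 without BeadChip 1 and 73 after median centering. Without 1 array these counts ran from 23 to 91, 8 to 55 and 73 to 136. The F test's count of 95 became 205 with 23 separate arrays, 55 with the block, 29 without BeadChip 1, 364 after median centering, 175 with the detection filter and 37 by analysis of variance. Between treatments in DRD1A, 11 became 247 after median centering, 0 without BeadChip 1, 22 with the detection filter and 5 with no filter, and in DRD2 0 to 9 probes were called, or up to 16 when 1 array, DRD2 chronic array 4A, was left out. The interaction count stayed at 0 under the alternatives that give it and reached 7 without array 4A. No paired analysis was possible because the labels give no replicate numbers shared between groups. Signal over background limits GADD45A, GADD45B 3370377 and GADD45G 6330377, which were detected on 10 to 16 of 23 arrays.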
